A study of Mus musculus with 8 samples.

Results

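Expression of the synaptonemal complex genes was followed in testis of C57BL/6J mice through the first wave of spermatogenesis. The 7 genes Sycp1, Sycp2, Sycp3, Syce1, Syce2, Syce3 and Tex12 were chosen by symbol, and all 7 were found among the 23983 genes of the table of FPKM values (fragments scaled to transcript length and library size). Total RNA came from a piece of testis, not sorted by cell type, at day 12 (d12), d16 and d24 after birth and from adults, with 1 library per stage, and the labels name no treatment or altered gene for any of them. The first wave of germ cells develops in step, so that these days sample successive stages of it. The number of animals behind a library and the age of the adult mice are not given in the sources used here. With 1 library per stage there is no spread between animals and no test between stages. A range in parentheses is the 95% interval that the fragment count of a value allows, which covers counting error only.

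The synaptonemal complex is the protein ladder that holds homologous chromosomes together along their length during meiotic prophase. Lateral elements, built on the chromosome axes with SYCP2 and SYCP3, form its sides. SYCP1 spans the gap between them as the transverse filament. SYCE1, SYCE2, SYCE3 and TEX12 form the central element, where the ends of SYCP1 molecules from both sides meet. Axes appear in leptotene, synapsis spreads in zygotene and is complete in pachytene, and the ladder comes apart in diplotene.

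For a transcript of 1 kb, a single fragment was worth between 0.0455 FPKM in the d24 library and 0.112 FPKM in the adult library, as read from the steps of the low values. The fragments on genes numbered from 8906927 in the d12 library to 23683534 in the d24 library. The summed FPKM of a library ranged from 283580 (d12) to 659202 (adult), so equal values are not equal shares of their libraries. Setting every library to an equal FPKM sum moved the median log2 ratio of all genes by -0.11 from d12 to d16, by -0.61 from d16 to d24 and by -0.48 from d24 to adult testis. Among the genes of the table more than 2-fold apart, the share that were higher at the later stage then changed from 77.5% to 66.2%, from 76.5% to 38.8% and from 83.8% to 38.2% at these steps. Comparisons of genes within a library do not depend on this choice. In testis tissue, fewer cells of a type and less RNA per cell cannot be told apart.

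The 7 genes lie on 7 autosomes (RefSeq annotation of GRCm38). Sycp1 lies on the minus strand of chromosome 3 (102818499 to 102936100) with 33 exons, Sycp2 on the minus strand of chromosome 2 (178345295 to 178407658) with 44 exons, and Sycp3 on the plus strand of chromosome 10 (88459587 to 88473236) with 9 exons. Of the central element genes, Syce1 lies on the minus strand of chromosome 7 (140777229 to 140787854) with 13 exons, and Syce3 on the minus strand of chromosome 15 (89390174 to 89410503) with 3. Syce2 lies on the plus strand of chromosome 8 (84872111 to 84887446), and its 4 curated transcripts of 757 to 1230 bases start at 2 positions. Tex12, with 5 exons, lies on the minus strand of chromosome 9 (50557148 to 50561268), wholly within the span of Il18 on the other strand and sharing no exon bases with it. Il18 was at 2.03, 1.39, 3.31 and 1.81 FPKM in the order of the stages (d12, d16, d24, adult), the order used for values given in series. Of the exon bases of Sycp3, 80 overlap Chpt1 on the other strand, which was at 16.3, 18.3, 21.5 and 57.7 FPKM. A copy of 89.6% of the Sycp1 transcript, 91.9% identical, lies on chromosome 7 (18786370 to 18789414), within the annotated pseudogene Sycp1-ps1. Sycp1-ps1 was listed at 2.15, 4.03, 6.80 and 11.4 FPKM. Of the other members, only Syce2 had a further match at an E-value limit of 1e-10, a partial copy on chromosome 5 that covered at most 77.7% of a transcript at 82.8% identity.

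The 300 bases from 250 before to 50 after each annotated start (RefSeq, GRCm38.p6) were searched on both strands for 4 motifs of regulators of germ cells or of the cell cycle. MYB type sites (TAACNG), the recognition element of the factor family that holds A-MYB (Mybl1), a regulator of pachytene genes, were found for 5 of the 7 genes, against 25.9% of all 27025 genes and 23.3% of all 32851 windows. Sites of the type bound by STRA8 and MEIOSIN (CNCCTCAG), which switch on meiosis, were found for 3 members, against 9.12% of genes and 7.94% of windows. E2F type sites (GGCGGGA) were found for 2 members, against 12.7% of genes and 11.3% of windows, and CRE type sites (TGACGTCA) for 0 members, against 2.03% of genes and 1.79% of windows. The window of Sycp3 held no match to any of the 4. A match is a description of the letters and no evidence of binding. The following matches, 5′ to 3′ on the strand of the gene and with the motif in capitals, show which members share a motif and how close to the start it lies:
Sycp1, MYB type, 33 bases before the start, chr3:102936116-102936145: cagctggaccaaCCGTTAaattgagccggt
Syce3, MYB type, 28 bases before the start, chr15:89410274-89410303: gggcggggctagTAACGGaaaggggcgggg
Syce1, MYB type, across the start, chr7:140787841-140787870: aggtgcagtgtcTAACAGcctggaagctgc
Syce2, MYB type, 57 bases before the upstream start, chr8:84872042-84872071: acacaaatccgtCTGTTAccacatagcacc
Tex12, STRA8/MEIOSIN type, across the start, chr9:50561257-50561286: gtgctgcggctCTGAGGCGgcaggtcgtgg
Syce2, STRA8/MEIOSIN type, 39 bases before the downstream start, chr8:84872208-84872237: cgcagagggcgCTGAGGCGggaaaagacgg

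In Sycp2 the MYB type match begins 140 bases before the start, and in Sycp1 the STRA8/MEIOSIN type match lies 33 to 40 bases after it. For Syce3, the start 28 bases from the MYB type match is the downstream one (89410263). The window of its upstream start (89410503) held no match. The STRA8/MEIOSIN type match of Syce2 overlaps the first bases of an E2F type match. Tex12 has a separate E2F type match beginning 146 bases before its start. Stra8 itself was at 86.4, 49.2, 19.0 and 12.3 FPKM in the order of the stages. Mybl1 was at 17.4, 37.6, 54.2 and 52.5 FPKM.

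**Figure D1:**
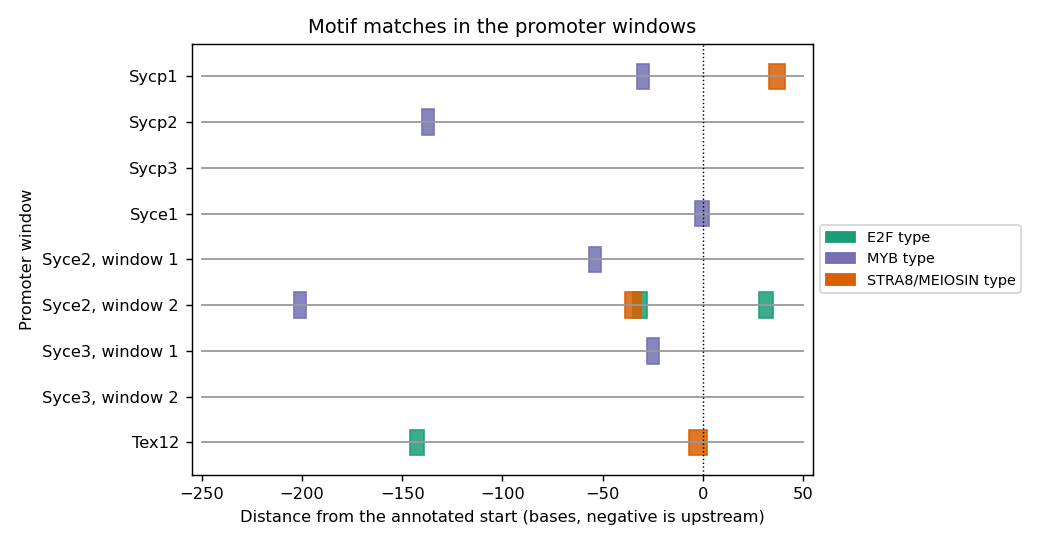
Matches to 3 motifs in the 9 promoter windows of the 7 genes, by distance in bases from the annotated start (dotted line). MYB type matches (purple) were found for 5 genes, STRA8/MEIOSIN type matches (orange) for 3 and E2F type matches (green) for 2, and the window of Sycp3 held none.

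All 7 genes were already expressed at d12, from 11.0 FPKM for Tex12 to 414 FPKM for Sycp3. The study set limits for genes that first appear at a stage, under 2 FPKM before it and at least 2 FPKM at it, and a further cutoff on expression that was not applied here. By the limits of 2 FPKM alone, none of the 7 was among the genes that appear at d16, 3.55% of all genes, or at d24, 6.30% of all genes, because each already exceeded 5 FPKM at d12. In the deposited values, levels followed different courses after d16. Sycp1, Sycp3 and Tex12 were highest at d16, Sycp2 kept an even level from d16 on, Syce1 and Syce3 were higher at each later stage, and Syce2 stayed even until d24 and was highest in adult testis. Across all genes that averaged 1 FPKM or more, 35.3% had their highest value at d12, 10.4% at d16, 18.0% at d24, with 36.3% in adults. For the members these counts were 0, 3, 1 and 3. Under equal sums they were 0, 4, 2 and 1, since Sycp2 was then highest at d16 and Syce1 and Syce3 at d24. The shares of all genes by highest stage were not worked out under equal sums, so these counts have no background beside them.

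**Figure D2:**
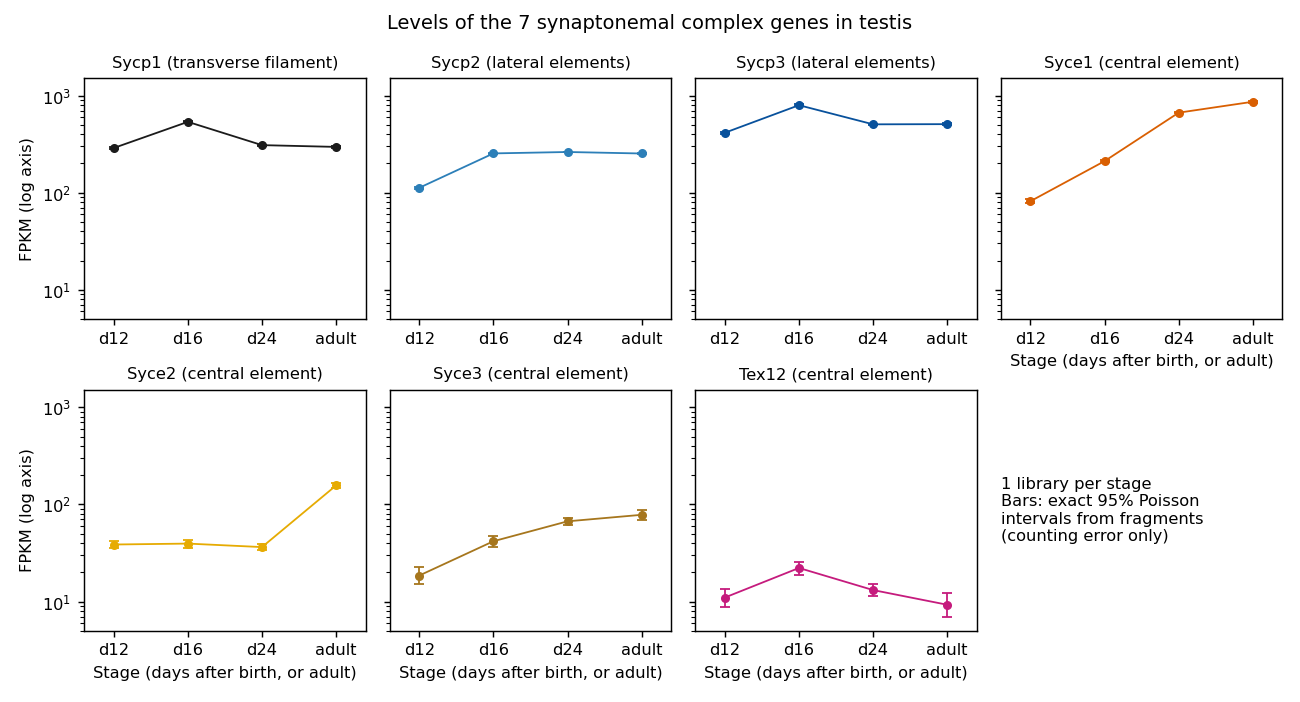
FPKM of the 7 genes (log axis) at the 4 stages, 1 library each, with exact 95% Poisson intervals from the fragments as bars. Sycp1, Sycp3 and Tex12 have their highest point at d16, while Syce1 goes from 81.6 to 863 FPKM and Syce2 lies between 36.4 and 39.5 FPKM until d24 and at 157 in adult testis.

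Sycp3, whose protein coats the chromosome axes, was the most abundant of the 7 at d12 and d16. It had 414 FPKM at d12 (403 to 425, 5813 fragments), 795 at d16 (781 to 810), 505 at d24 (496 to 514) and 507 in adult testis (494 to 522). The d16 library thus stood above the other three. The d16 value was 1.92 times the d12 value (1.86 to 1.98), and d24 stood at 0.635 of d16 (0.619 to 0.652), or 0.414 under equal sums. Between d24 and adult testis the ratio was 1.00 (0.972 to 1.04) in the deposited values and 0.720 under equal sums.

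Sycp2, the partner of SYCP3 in the lateral elements, has the longest transcript of the 7, of 5688 bases. It had 112 FPKM at d12 (110 to 115, 7992 fragments), 254 at d16 (250 to 257), 262 at d24 (259 to 265) and 253 in adult testis (249 to 257). As deposited, the d12 library was low and the other three were alike, whereas under equal sums adult testis stood at 0.9697 of d12. From d12 to d16 the ratio was 2.26 (2.20 to 2.32). The ratio of 1.03 from d16 to d24 (1.02 to 1.05) turned to 0.674 under equal sums, and that of 0.998 from d16 to adult testis (0.975 to 1.02) to 0.466. Within a library, Sycp2 was at 0.271 times the level of Sycp3 at d12 (0.262 to 0.281), at 0.319 times at d16 (0.311 to 0.326), at 0.519 times at d24 (0.508 to 0.530) and at 0.499 times in adult testis (0.483 to 0.515). The balance between both lateral element genes therefore differed between the early and the late stages by more than counting error, whatever the scaling.

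Sycp1, the transverse filament, followed a course close to that of Sycp3. Its values were 288 FPKM at d12 (283 to 293, 12401 fragments), 536 at d16 (529 to 543), 309 at d24 (305 to 313) and 296 in adult testis (290 to 302). The d16 library was again the highest, and the other three lay close together as deposited, whereas under equal sums adult testis stood at 0.442 of d12. The step from d12 to d16 was 1.86-fold (1.82 to 1.90), and d24 stood at 0.576 of d16 (0.565 to 0.586), or 0.375 under equal sums. Relative to Sycp3, Sycp1 was at 0.696 (0.675 to 0.719) at d12, 0.674 (0.659 to 0.689) at d16, 0.611 (0.597 to 0.624) at d24 and 0.583 (0.563 to 0.604) in adult testis. Over the 4 stages this ratio varied less than the ratio of Sycp3 to any other member.

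Syce1, which binds SYCP1 in the central element, departed most from the course of Sycp1. It had 81.6 FPKM at d12 (77.5 to 85.8, 1493 fragments), 211 at d16 (204 to 218), 666 at d24 (657 to 675) and 863 in adult testis (847 to 879). Every stage lay above the one before it in the deposited values. The steps were 2.59-fold from d12 to d16 (2.44 to 2.75), 3.16-fold from d16 to d24 (3.05 to 3.27) and 1.30-fold from d24 to adult testis (1.27 to 1.33). Under equal sums the last 2 of these were 2.06-fold and 0.929-fold. Sycp3 was at 5.07 times the level of Syce1 at d12 (4.79 to 5.37) and 3.77 times at d16 (3.63 to 3.91), but at 0.759 times at d24 (0.742 to 0.776) and 0.588 times in adult testis (0.569 to 0.608). Syce1 passed both Sycp1 and Sycp3 between d16 and d24, a change of order within the library.

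Syce2, which assembles with TEX12 into fibres of the central element, showed no such early increase. It had 38.7 FPKM at d12 (35.2 to 42.3), 39.5 at d16 (36.0 to 43.2), 36.4 at d24 (33.9 to 39.1) and 157 in adult testis (149 to 166). As deposited, the adult library alone was high. Under equal sums d24 stood at 0.564 of d12 and adult testis at 1.75 times d12. The ratio from d12 to d16 was 1.02 (0.897 to 1.16), or 0.941 under equal sums. From d16 to d24 it was 0.920 (0.821 to 1.04), or 0.600 under equal sums. In contrast, adult testis stood 4.31-fold above d24 (3.94 to 4.72), or 3.09-fold under equal sums. Fragments of this gene depend on which of its transcripts is present, and the d24 value corresponds to 605 to 983 fragments for the shortest and the longest. Gcdh, on the other strand, overlaps the last 1060 bases of the gene without sharing exon bases. It was at 8.78, 4.28, 2.74 and 3.02 FPKM at the 4 stages.

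Syce3, which has the shortest transcripts of the 7, of 448 and 480 bases, is needed for loading the other central element proteins. Its values were 18.5 FPKM at d12 (15.3 to 22.4, 108 fragments), 41.8 at d16 (36.6 to 47.3), 67.0 at d24 (62.1 to 72.2) and 78.2 in adult testis (69.8 to 87.1). As deposited they were in the same order as those of Syce1, over a smaller range. The step from d12 to d16 was 2.25-fold (1.78 to 2.84), and from d16 to d24 it was 1.60-fold (1.38 to 1.87), or 1.04-fold under equal sums. From d24 to adult testis the ratio of 1.17 (1.02 to 1.33) turned to 0.837 under equal sums. Syce1 and Syce3 did not keep a fixed ratio to each other, which was 4.40 at d12 (3.61 to 5.38), 5.05 at d16 (4.44 to 5.78), 9.94 at d24 (9.21 to 10.7) and 11.0 in adult testis (9.89 to 12.4).

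Tex12, the partner of SYCE2, was the lowest of the 7 at every stage. It had 11.0 FPKM at d12 (8.79 to 13.6, 85 fragments), 22.2 at d16 (19.0 to 25.8, 171 fragments), 13.1 at d24 (11.3 to 15.2, 178 fragments) and 9.27 in adult testis (6.91 to 12.2, 51 fragments). As for Sycp1 and Sycp3, the d16 library stood above the others. The d16 value was 2.02 times the d12 value (1.55 to 2.65), and d24 stood at 0.592 of d16 (0.477 to 0.735), or 0.386 under equal sums. Adult testis stood at 0.706 of d24 (0.507 to 0.969), or 0.506 under equal sums. Although their proteins form a complex, the genes differed from d16 to adult testis in opposite directions, with an adult level 3.97 times that of d16 for Syce2 (3.58 to 4.42) and 0.418 times for Tex12 (0.300 to 0.575). Under equal sums these were 1.86 times and 0.195 times.

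From d12 to d16, 4 of the 7 genes (Sycp2, Syce1, Syce3 and Tex12) passed a 2-fold difference on the scale of log2(FPKM + 0.1), against 12.6% of the 13901 genes that averaged 1 FPKM or more. None was 2-fold lower, against 3.67% of all genes. Sycp1 with a log2 ratio of 0.89 and Sycp3 with 0.94 lay just inside the limit, and Tex12 with 1.00 just past it. The median log2 ratio of the 7 was 1.00, and that of all genes was 0. Under equal sums Tex12, at 1.86-fold, no longer passed. From d16 to d24, 1 gene, Syce1, was 2-fold higher (27.5% of all genes) and 0 were 2-fold lower (8.45%). The median log2 ratio was -0.12 for the 7 and 0.13 for all genes. Under equal sums, Sycp1, Sycp3 and Tex12 were past 2-fold lower at this step, as were 30.7% of all genes. From d24 to adult testis, 1 gene, Syce2, was 2-fold higher (11.4% of all genes) and 0 were 2-fold lower (2.20%). The median log2 ratio was 0.01 for the 7 and -0.02 for all genes, and 97.2% of all genes had a lower ratio than Syce2 at this step.

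**Figure D3:**
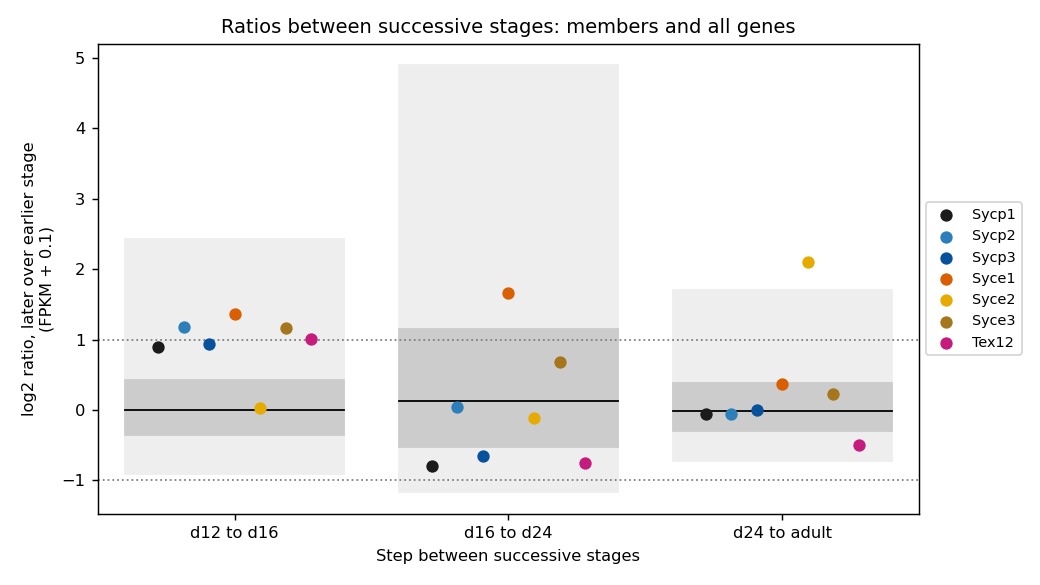
Log2 ratio of FPKM + 0.1 between successive stages for the 7 genes (points), with the interquartile range of all 13901 genes (dark grey), their 5th to 95th percentile range (light grey), their median (line) and the 2-fold limits (dotted). From d12 to d16, 6 points lie near or above 1 and Syce2 lies at 0.03, and from d24 to adult testis Syce2 stands apart at 2.11.

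The make-up of the summed FPKM of the 7 genes, which does not depend on the scaling between libraries, differed between the early and the late stages. Lateral element genes held 54.6% of the sum at d12, 55.2% at d16, 41.3% at d24, with 35.1% in adults. The share of Sycp1 was 29.9%, 28.2%, 16.6% and 13.7%. That of the 4 central element genes was 15.5%, 16.6%, 42.1% and 51.2%. Most of this came from Syce1, whose own share was 8.46%, 11.1%, 35.8% and 39.9%. Within the central element, Syce1 made up 54.5% of the summed level at d12, 67.1% at d16, 85.1% at d24, with 77.9% in adults, while Tex12 made up 7.34%, 7.05%, 1.68% and 0.837%. The highest of the 7 genes exceeded the lowest 37.6-fold at d12, 35.9-fold at d16, 50.7-fold at d24, with 93.1-fold in adults.

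**Figure D4:**
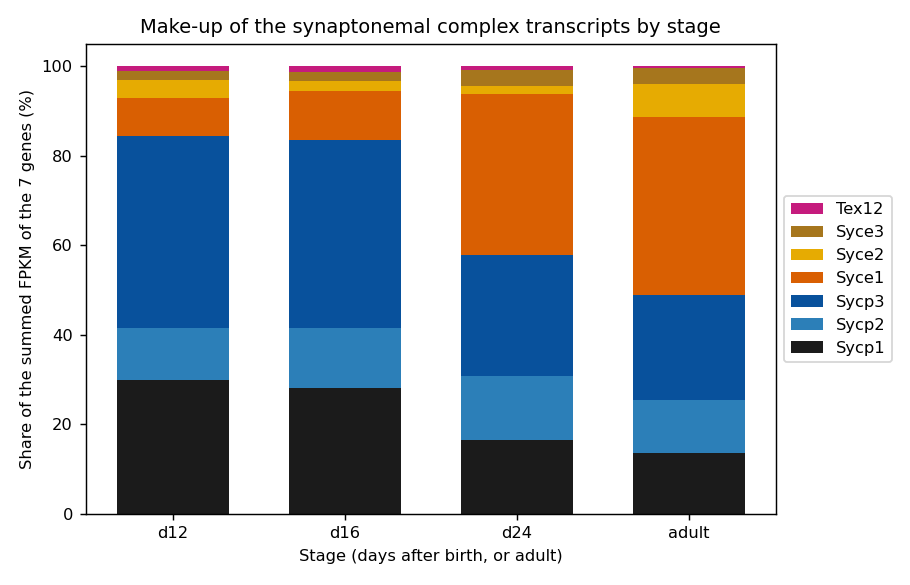
Share of each gene in the summed FPKM of the 7 genes (percent) in each library. Sycp3 is the largest block at d12 (42.9%) and d16 (41.9%), and Syce1 is the largest at d24 (35.8%) and in adult testis (39.9%).

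By level, the order at d12 was Sycp3, Sycp1, Sycp2, Syce1, Syce2, Syce3 and Tex12. At d16 the order was the same except for Syce2 and Syce3, whose ratio of 0.946 (0.808 to 1.11) did not differ from 1 beyond counting error. Syce1 moved to the top at d24 and stayed there in adult testis. Among all genes of a library, Sycp3 ranked 60 from the highest at d12, 20 at d16, 97 at d24, with 173 in adults, and Sycp1 ranked 103, 31, 213 and 399. Syce1 ranked 535, 174, 54 and 76. Tex12 was far lower in the order, at rank 5108, 3083, 5950 and 7286. These ranks also do not depend on the scaling. They place Sycp3, Sycp1 and Tex12 highest at d16 and Syce1 highest at d24, while Syce2 ranked 1430, 1598, 2781 and 847. Sycp2 ranked 345, 132, 268 and 476, and Syce3 ranked 3323, 1501, 1535 and 1744. By rank both were thus also highest at d16, unlike in the deposited values.

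Profiles over the 4 stages were compared by the Euclidean distance of log2(FPKM + 0.1) after each gene was centred on its own mean, among genes that reached 5 FPKM in at least 1 library. This is a description over 4 points that come from the same libraries. Sycp1 and Sycp3 were 0.21 apart and Sycp1 and Tex12 0.34, and Sycp3 was the gene ranked 4 of 10949 in likeness to Sycp1. From Tex12, Sycp1 ranked 8 and Sycp3 ranked 53. Syce1 and Tex12 were the farthest apart, at 3.10, and of the members Syce3 was nearest to Syce1, at 1.17 and rank 1065. The member nearest to Syce2 was Syce3, at 1.61. The single gene most like each member was Zfp936 for Sycp1, Ccdc34 for Sycp2, Rad54b for Sycp3, Tsga10 for Syce1, Pnp2 for Syce2, Snrnp35 for Syce3 and Mov10l1 for Tex12. Rad54b, a recombination factor, had 12.6, 26.6, 17.4 and 16.1 FPKM, and Mov10l1, a helicase of piRNA production, had 55.7, 107, 71.8 and 53.4. Tsga10, which encodes a sperm tail protein, had 20.1, 52.5, 166 and 227. Nearest to the median profile of the 7 were Tbc1d7, Tmem251, Poln, Tex30, Ccdc112, Gm3414, Ano1, Fbxo6, Zfa-ps and Zc3h6, at distances from 0.09 to 0.17.

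Other genes of meiotic chromosome axes, synapsis and recombination also followed several courses in the deposited values. Of 36 genes listed, 32 were found in the table. From d12 to d16, 13 of the 32 were 2-fold higher (12.6% of all genes) and 0 were 2-fold lower (3.67%), with a median log2 ratio of 0.60. Among them were Hormad1, an axis protein that is removed upon synapsis, with 115, 344, 266 and 217 FPKM, and Psmc3ip (HOP2), a partner of the strand exchange proteins, with 30.0, 114, 240 and 341. From d16 to d24, 6 were 2-fold higher and 3 were 2-fold lower, against 27.5% and 8.45% of all genes. Under equal sums these counts were 2 and 14, against 19.4% and 30.7% of all genes. From d24 to adult testis, 0 passed the limit in either direction, against 11.4% of all genes higher and 2.20% lower. Under equal sums 1 was 2-fold lower at this step, against 10.9% of all genes. The central element gene Six6os1, listed as 4930447C04Rik, had 49.1, 58.5, 31.1 and 28.2 FPKM, with its highest value at d16. Syce1l, a paralog of Syce1, had 2.46, 11.9, 45.6 and 54.8 FPKM, in the same order as Syce1. Of the meiotic cohesin subunits, as deposited, Stag3 had 53.4, 84.8, 178 and 179 FPKM and Smc1b had 174, 216, 250 and 338. Rec8 had 9.48, 7.63, 23.5 and 33.9, while Rad21l had 25.7, 16.2, 8.61 and 8.65. Dmc1, the meiotic strand exchange protein of early prophase, had 45.7, 33.3, 17.5 and 12.4.

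Markers of the testis cell types also differed between the stages, here in the deposited values. Of the 8 markers of early meiotic spermatocytes, 2 (Hormad1 and Spata22) were 2-fold higher at d16 than at d12 (12.6% of all genes), and the median log2 ratio of the list was 0.10. Of the 8, 4 (Dmc1, Prdm9, Mei1 and Gm960) were highest at d12. The summed level of the list was 221, 466, 342 and 279 FPKM, most of it from Hormad1, and without Hormad1 it was 106, 122, 76.1 and 61.5. Of these 8 genes, 4 are also among the axis and synapsis genes. All 8 markers of pachytene spermatocytes were 2-fold higher at d16 than at d12 (12.6% of all genes) and 7 of 8 were 2-fold higher at d24 than at d16 (27.5%), with sums of 80.3, 1070, 4497 and 5166 FPKM. The 8 markers of round spermatids summed to 4.22, 72.6, 966 and 2193 FPKM, with Sun5 at 0 at d12 and Acrv1, Catsper3 and Sun5 at 0 at d16. The sum of the 8 elongating spermatid markers was 13.6, 4.54, 2584 and 27567 FPKM, with Gapdhs at 0 at d16. Over the same stages the 8 Sertoli cell markers summed to 200.2, 146, 90.6 and 68.0 FPKM, with Amh at 0 in adult testis, the 8 spermatogonial markers to 210, 147, 89.6 and 70.3, and the 6 Leydig cell markers to 133, 105, 189 and 605. Genes within a list differed. Of the spermatogonial markers, 5 were highest at d12, where most of the sum came from Stra8 and Dmrt1. Nanos3 was highest at d16, Id4 at d24 and Gfra1 in adult testis. Of the Leydig cell markers, 4 were highest in adult testis, Star at d12 and Hsd3b6 at d24. The part of these differing cell mixtures in the levels of the 7 genes was not tested.

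**Figure D5:**
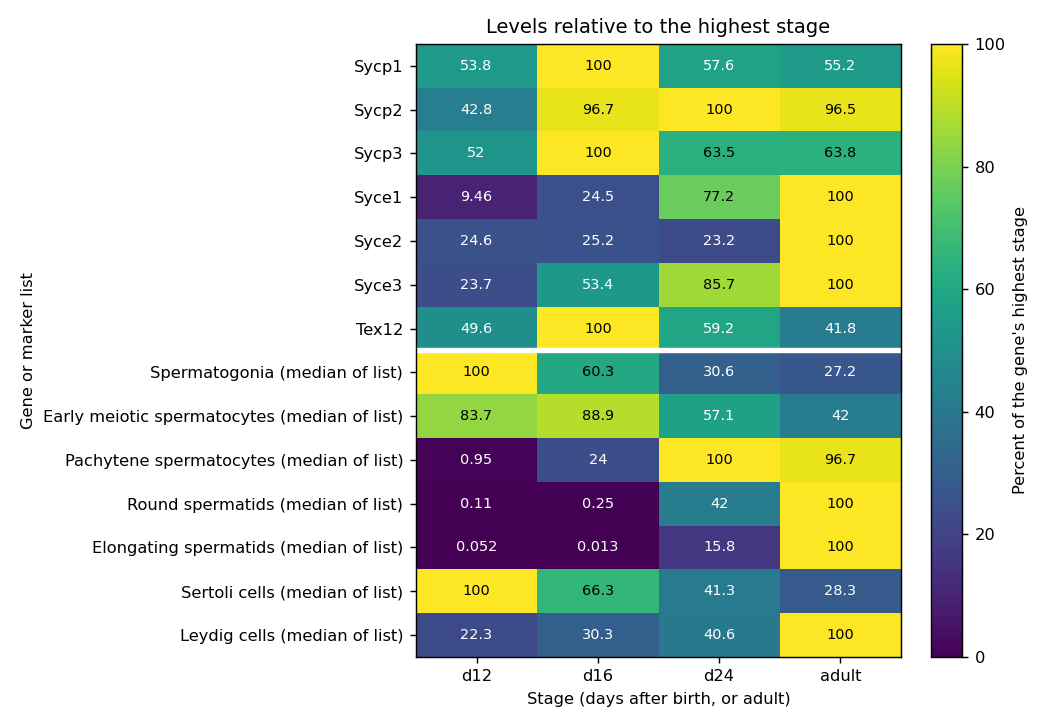
Level at each stage as a percent of the highest stage, for the 7 genes and, below the white line, as the median over each list of cell type markers. Sycp1, Sycp3 and Tex12 reach 100 at d16 with 55.2, 63.8 and 41.8 left in adult testis, the pachytene markers have a median of 0.954 at d12 and 100 at d24, and the medians of the early meiotic markers lie between 42.0 and 88.9.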

How the data were processed

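Testis RNA of 4 stages was analysed, with 1 library per stage, assigned from the labels. The 4 H3K27Ac ChIP-seq samples were left out (not analysed here). FPKM values were deposited by the authors. For these, TopHat2 2.1.0, which ran bowtie 1.1.2, mapped the read pairs to GRCm38/mm10 given RefSeq genes, and 1 alignment was kept per pair. Cuffdiff (Cufflinks 2.2.1) then corrected for bias and for reads with several alignments, without effective length correction. The libraries are strand-specific, and the options stated for Cuffdiff name no strand setting. The scaling between libraries is not given in the sources used here.

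Fragments were recovered from 14603 genes with 1 curated RefSeq transcript, for which FPKM times length is a whole multiple of the value of 1 fragment. Of values up to 20 fragments, 91.8% to 92.5% lay within 0.05 of a whole number. Fragments of the members use the mean length of their curated transcripts. FPKM values have exact 95% Poisson intervals, and ratios exact 95% Clopper-Pearson intervals. No molecular identifiers are named for the reads, so these cover counting error only. Steps use log2(FPKM + 0.1), genes averaging 1 FPKM or more, and a limit of 2-fold in place of a test. Copies were searched in the chromosomes of GRCm38.p6 with blastn 2.17.0. Statistics came from scipy 1.17.1 and numpy 2.4.6, tables from pandas 2.3.3 under python 3.11.15. On simulated data of 14603 genes with counting error only, the value of 1 fragment was recovered in 4 of 4 libraries. In these data 200 of 200 genes raised 4-fold passed the limit, as did 7 of 5921 unchanged genes. Built from whole fragments and with changes larger than the limit, the simulation checks the calculation only. It holds no spread between animals or libraries.

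The 7 genes and the lists of genes were chosen with earlier results of these data known. Named are the members, the listed axis, synapsis and marker genes, the genes with the profiles most like the members, and, chosen after their values were seen, genes that overlap or copy a member. Alternatives were other scalings, pseudocounts, filters, thresholds, transcript lengths and promoter windows. Of the genes listed for axes and synapsis, Ankrd31, Shoc1, Rnf212 and Sycp2l were not analysed here.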

Additional observations from a re-analysis of the deposited data

How the results depend on the processing

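No paired analysis was possible because each stage has 1 library, and for the same reason no library could be left out. Of 239 alternatives over 114 results, 122 counted as moved, 117 did not, and 0 turned a 2-fold difference to the other side. Moved means past the counting interval for ratios between stages and past 1.5 times for counts. The tally also holds alternatives that give another quantity, such as ranks among fewer genes, shares divided by Sycp3 and marker sums without Hormad1. It is thus not a measure of counting error alone. For the step from d16 to d24, the number of members 2-fold lower was 0 as deposited, 3 under equal FPKM sums, 2 with the upper quartile and 3 with each library's own fragments on genes, a scaling chosen after seeing the data. The share of all genes 2-fold lower at this step was 8.45%, 30.7%, 17.0% and 25.8% in the same order. The median log2 ratio of the members at this step was -0.74, -0.41 and -0.63 under these scalings, against -0.48, -0.15 and -0.37 for all genes. From d24 to adult testis it was -0.47, -0.23 and -0.32, close to the -0.49, -0.25 and -0.34 of all genes. A limit of 1.5-fold gave 2 members higher and 3 lower from d16 to d24, against 36.5% and 22.4% of all genes. With the last 150 bases of the promoter window, 1 member had an E2F type match (7.29% of all windows) and 4 a MYB type match (12.2%). STRA8/MEIOSIN type matches were then found for 3 members (4.27%) and CRE type matches for 0 (1.40%). Of the 21 ratios of members between successive stages, 5 changed direction under equal sums, 4 with the upper quartile and 4 with own fragments, each of them at most 1.30-fold apart as deposited, and 0 changed with a pseudocount of 1 FPKM. Counts of all genes past the limit in use varied over the alternatives. These include a limit of 1.5-fold and the table without a filter, of 23983 genes in place of 13901. The counts ranged from 1219 to 2821 higher and 131 to 1864 lower from d12 to d16 (1753 and 510 as reported). From d16 to d24 the ranges were 2700 to 5159 and 568 to 4263 (3824 and 1174). From d24 to adult testis they were 935 to 2672 and 58 to 1515 (1578 and 306). The cause of these moves was not tested. Of the 10 genes most like the median profile, 9 were shared under equal sums and 7 with a pseudocount of 1 FPKM. Tex12, with 51 fragments in adult testis, has the widest interval of the 7 genes relative to its level.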

Other observations

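Set against the marker lists within each library, the summed level of the 7 genes was 4.37 times that of the early meiotic markers at d12, 4.08 times at d16, 5.43 times at d24, with 7.76 times in adults. Most of the level of these markers came from Hormad1, and against the other 7, an alternative chosen after seeing the data, the multiple was 9.13, 15.5, 24.4 and 35.2. Against the pachytene markers the multiple was 12.01 at d12, 1.77 at d16, 0.413 at d24, with 0.419 in adults. Single genes also weighed heavily in this sum. Hspa2 held 39.9 of 80.3 FPKM at d12, and Ldhc held 2267 of 4497 at d24 and 2769 of 5166 in adults. None of these multiples depends on the scaling between libraries.

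Promoter windows of the members differed in base composition. The share of G and C ranged from 54.7% for Syce1 to 69.3% for the downstream window of Syce2, with a median of 52.7% over all windows. Observed over expected CpG was 0.962 in that window of Syce2, 0.915 for Tex12 and 0.874 for Sycp1, against 0.218 in the upstream window of Syce3, 0.363 for Sycp2 and a median of 0.384 over all windows.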
